A study of Homo sapiens with 6 samples.

Results

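Transcripts of the TNF receptor, ligand and TRAF genes were followed in Jurkat, an established line of human leukaemic T cells, treated with siRNA against RPS3 or against p65. Members were all probes whose platform gene symbol begins with TNFRSF, TNFSF, RIPK or TRAF and a digit, together with TRADD, BIRC2 and BIRC3. The array held 65 such probes for 32 symbols, and TRADD and BIRC3 were not analysed here. A gene was kept if it had a value on at least 2 of 3 arrays of each siRNA, which left 28 genes of the 8797 features tested, a feature being a gene or an unnamed probe. The 28 comprised 12 receptors, 7 ligands, 4 TRAF adaptors, 2 TRAF-interacting proteins, and BIRC2, RIPK2 and RIPK3. Left out for blank values were 4 receptors, TNFRSF10A, TNFRSF10C, TNFRSF18 and TNFRSF1B. Of the 28, 27 had values on all 6 arrays, and the exception was TNFRSF11B, blank on the p65 siRNA array at 3 h.

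There were 3 arrays with RNA from cells given RPS3 siRNA and 3 with RNA from cells given p65 siRNA, each labelled with Cy5. The Cy3 channel of each array held the control, cells that had received nonspecific siRNA. Both cell samples of an array had been stimulated through the T-cell receptor with anti-CD3/CD28 (1 ug) for the same time, and the times were 1, 3 and 6 h, with 1 array for each siRNA and time. Unstimulated cells were not analysed here, so the ratios describe the siRNA and not the response to stimulation. Values are log2 ratios, siRNA over control, which is the likely direction from the dyes, and 0 means equal signal. They show no expression level, so Jurkat identity could not be checked from T-cell marker levels, and 14 of 16 such markers were measured as ratios. In bulk RNA, fewer cells of a type and less RNA per cell cannot be told apart. A mean is given with its SD over the 3 arrays of a siRNA, and a gene passed if its limma p-value, adjusted by Benjamini-Hochberg over all features, was under 0.05.

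TNF family ligands are trimers on the surface of immune cells or released from it, and bind receptors of the TNF receptor family. Some receptors, such as the TRAIL receptor TNFRSF10B, carry a death domain and can start apoptosis. Others, such as 4-1BB, bind TRAF adaptors, which with BIRC2, BIRC3 and RIPK proteins pass the signal to NF-kB and MAP kinases. In T cells several members are costimulatory, and TNFRSF9, TRAF1 and BIRC3 are known NF-kB target genes. p65, encoded by RELA, is a subunit of NF-kB that activates transcription, and RPS3 is a protein of the small ribosomal subunit that the study examines as a part of p65 complexes.

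Because p65 binds DNA at kappaB sites, promoter letters of the members are shown first, from RefSeq sequences of the build GRCh38.p14. Windows from 250 bases before to 50 bases after a start matched 20 of the 28 genes (31 windows). RIPK2, RIPK3, TNFRSF10B, TNFRSF10D, TNFRSF11B, TNFRSF13C, TNFRSF17 and TNFSF8 had no entry. The kappaB consensus, searched on both strands, was found in 5 of the 31 windows, 1 each of TNFRSF9, TNFRSF14, TNFRSF25, TNFSF13 and TRAF3. It was found in 5.91% of all 35116 windows of this length. TATAAA, also on both strands, was found in 3 of the 31 and in 11.5% of all windows. Printed below are the bases before the start of TNFRSF9 and TRAF3, which hold the match in capitals, and of TNFSF10, the member with the lowest mean, which holds none in this window.
TNFRSF9, chr1:7940840-7941089, minus strand: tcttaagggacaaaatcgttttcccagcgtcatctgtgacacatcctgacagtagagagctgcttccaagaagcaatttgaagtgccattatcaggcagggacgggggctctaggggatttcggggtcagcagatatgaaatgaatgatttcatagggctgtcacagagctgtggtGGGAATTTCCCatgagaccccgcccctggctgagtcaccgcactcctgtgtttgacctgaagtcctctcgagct
TRAF3, chr14:102777199-102777448, plus strand: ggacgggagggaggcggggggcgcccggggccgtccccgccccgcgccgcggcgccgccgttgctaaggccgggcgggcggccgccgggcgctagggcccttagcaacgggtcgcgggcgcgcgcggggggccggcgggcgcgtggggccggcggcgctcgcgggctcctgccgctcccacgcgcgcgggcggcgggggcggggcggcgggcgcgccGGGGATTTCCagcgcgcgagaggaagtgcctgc
TNFSF10, chr3:172523431-172523680, minus strand: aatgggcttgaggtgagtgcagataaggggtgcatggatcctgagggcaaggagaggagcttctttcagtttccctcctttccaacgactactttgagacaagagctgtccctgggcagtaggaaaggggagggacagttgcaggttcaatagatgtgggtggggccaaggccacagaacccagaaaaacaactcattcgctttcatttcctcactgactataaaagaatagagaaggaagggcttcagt
The TNFRSF9 match, GGGAATTTCCC, begins 74 bases before the start and reads as the consensus on both strands. The TRAF3 match, GGGGATTTCC, begins 33 bases before the start. These matches describe letters only and do not show that p65 binds there.

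The arrays were uneven. Between 5.40% and 15.1% of probes were blank on an array, and the SD of the log2 ratios was smallest, 0.26, for RPS3 siRNA at 3 h and greatest, 0.51, for p65 siRNA, also at 3 h. Over all tested features the arrays did not resemble each other by time label at 1 and 3 h. The RPS3 siRNA array at 1 h was closer to the p65 siRNA array at 3 h (Pearson r = 0.47 over 8321 features) than to the one at 1 h (r = 0.12 over 8360 features). The RPS3 siRNA array at 3 h was closer to the p65 siRNA array at 1 h (r = 0.45 over 8470 features) than to the one at 3 h (r = 0.17 over 8381 features). The last-named close pair shares a consecutive series of ID numbers in the labels, series 1, while the other 4 arrays form series 2. The 6 h arrays resembled each other most (r = 0.67 over 7936 features). It is not stated whether arrays share control RNA. The RPS3 transcript read -2.50, -2.53 and -1.44 at 1, 3 and 6 h with RPS3 siRNA, against 0.11, 0.01 and 1.11 with p65 siRNA. RELA, averaged over its probes, was at -0.54 ± 0.15 with RPS3 siRNA and -0.49 ± 0.09 with p65 siRNA, like values under both siRNAs. The size depends on the probe, since 1 RELA probe alone was at -0.99 over both siRNAs.

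No member passed in any comparison. With RPS3 siRNA 0 of 28 members passed, where 0% of all features did, and 4 had an unadjusted p under 0.05, or 14.3% of members against 7.71% of all features. Of these TNFRSF9, TNFSF10 and TRAF1 were below 0 (3.98% of all features had such a p below 0) and TNFSF13B was above (3.73%). With p65 siRNA 0 of 28 passed, where again 0% of all features did, and 1 had an unadjusted p under 0.05, against 5.06% of all features. The medians of the member means were -0.015 with RPS3 siRNA and 0.01 with p65 siRNA, and those of all features were 0.02 in both cases. The 28 genes therefore did not lie to one side. Members below 0 numbered 17, 14 and 14 of 28 at 1, 3 and 6 h with RPS3 siRNA (49.1%, 49.8% and 49.9% of all features), and 16 of 28, 12 of 27 and 12 of 28 with p65 siRNA (49.4%, 48.9% and 48.5%). With RPS3 siRNA 7 members were below 0 on all 3 arrays (15% of all features with 3 values were) and 5 were above 0 on all 3 (16.2% of all features). With p65 siRNA 1 member, BIRC2, was below 0 on all 3 arrays (9.39% of all features) and 5 were above 0 on all 3 (13.4% of all features). The values of every member are in the map of log2 ratios by array.

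**Figure D1:**
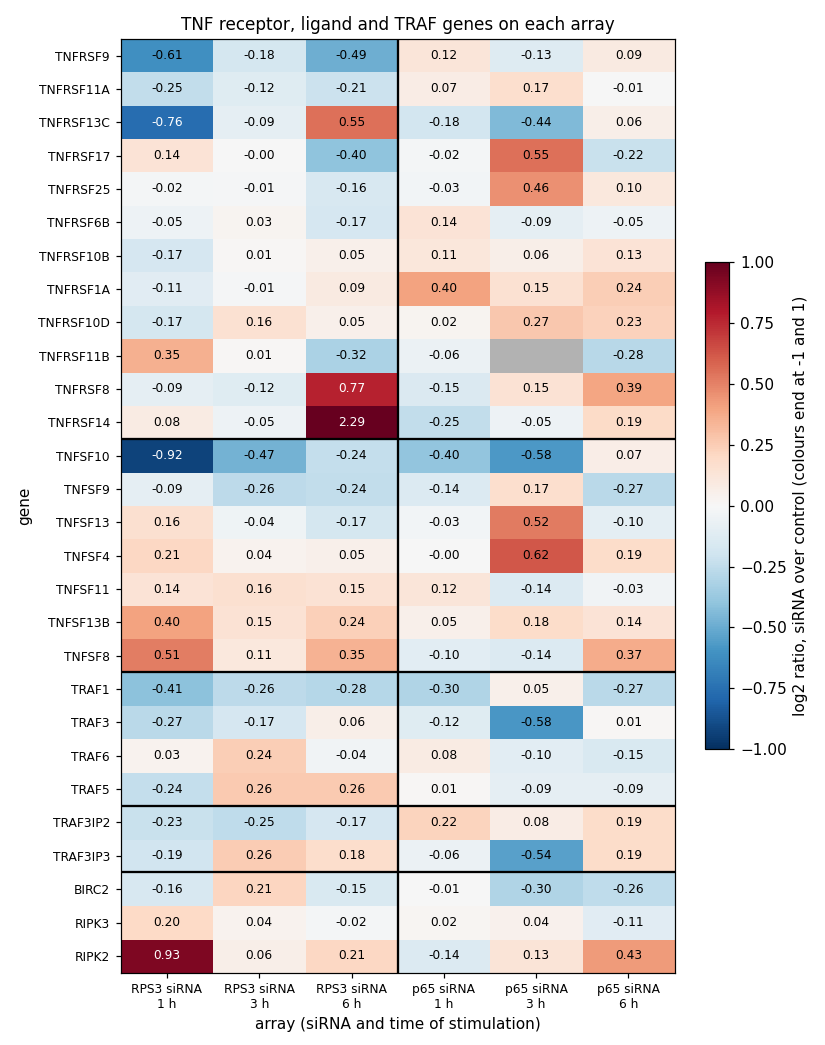
Log2 ratio (siRNA over control) of each of the 28 genes on each of the 6 arrays, with RPS3 siRNA arrays on the left and p65 siRNA arrays on the right, each from 1 h to 6 h; black lines separate receptors, ligands, TRAF adaptors, TRAF-interacting proteins and BIRC2, RIPK3 and RIPK2, and grey is a blank value. TNFRSF9, TNFSF10, TRAF1 and TRAF3IP2 are blue on all 3 RPS3 siRNA arrays, and the 2.29 of TNFRSF14 rests on 1 probe.

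Among the receptors TNFRSF9 stood lowest with RPS3 siRNA. TNFRSF9 encodes 4-1BB (CD137), a costimulatory receptor that appears on activated T cells. It read -0.61, -0.18 and -0.49 at 1, 3 and 6 h with RPS3 siRNA, and 0.12, -0.13 and 0.09 with p65 siRNA. All 3 RPS3 siRNA arrays were below all 3 p65 siRNA arrays, by little at 3 h. Its mean was -0.43 ± 0.22 with RPS3 siRNA, or 1.34-fold lower than control (adjusted p = 0.516), and 0.03 ± 0.14 with p65 siRNA (adjusted p = 0.990). It rests on 1 probe, since the other TNFRSF9 probe was blank on all 6 arrays. Leaving out 1 array gave -0.55 to -0.33 with RPS3 siRNA. Its promoter match is printed above, and any part of that match in these ratios was not tested.

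TNFRSF1A encodes TNFR1, the widely expressed death-domain receptor of TNF. It read -0.11, -0.01 and 0.09 with RPS3 siRNA, and 0.40, 0.15 and 0.24 with p65 siRNA. All p65 siRNA values were above all RPS3 siRNA values. The means were -0.01 ± 0.10 with RPS3 siRNA (adjusted p = 0.992) and 0.27 ± 0.13 with p65 siRNA (adjusted p = 0.919). TNFRSF1A was the 1 member with an unadjusted p under 0.05 for p65 siRNA, and it has a single probe. TNFRSF11A, which encodes RANK, the receptor of RANKL, read -0.25, -0.12 and -0.21 with RPS3 siRNA and 0.07, 0.17 and -0.01 with p65 siRNA. The groups did not overlap, at means of -0.20 ± 0.06 with RPS3 siRNA and 0.08 ± 0.09 with p65 siRNA (adjusted p = 0.701 and 0.946), again from a single probe.

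**Figure D2:**
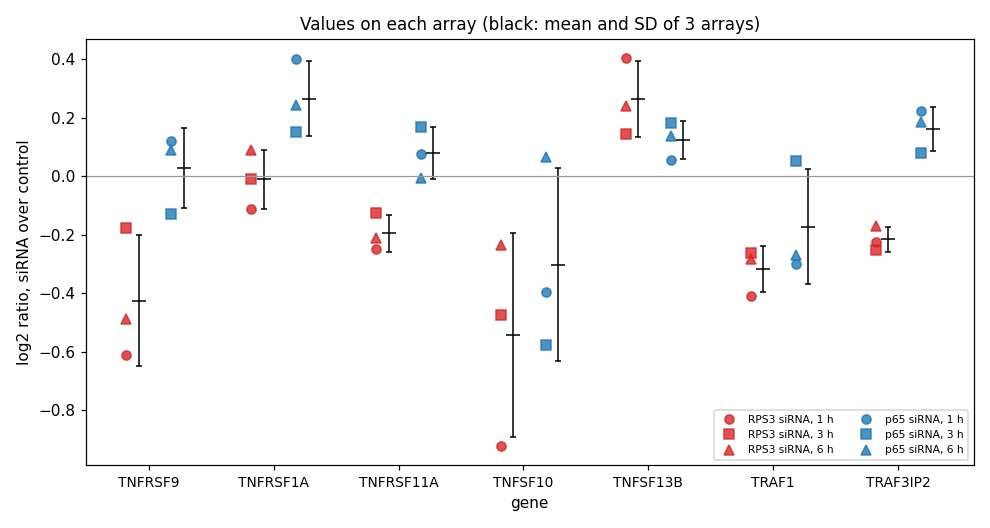
Log2 ratio (siRNA over control) of 7 genes on each array, RPS3 siRNA in red left of p65 siRNA in blue, with circles for 1 h, squares for 3 h and triangles for 6 h; black marks are the mean and SD of 3 arrays. The groups are apart for TNFRSF9, TNFRSF1A, TNFRSF11A and TRAF3IP2 and overlap for TNFSF10, TNFSF13B and TRAF1.

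The receptors of TRAIL that were kept were TNFRSF10B and TNFRSF10D. TNFRSF10B, the death receptor DR5, averaged -0.04 ± 0.12 with RPS3 siRNA and 0.10 ± 0.04 with p65 siRNA. Its probe with values on all arrays averaged -0.05 with RPS3 siRNA and -0.007 with p65 siRNA, so the p65 siRNA mean above 0 came from the incomplete probe. TNFRSF10D is a TRAIL receptor without a working death domain. It read -0.17, 0.16 and 0.05 with RPS3 siRNA (mean 0.01 ± 0.17), and 0.02, 0.27 and 0.23 with p65 siRNA (mean 0.17 ± 0.13). That p65 siRNA mean was among the 4 highest of the members. Of the secreted decoy receptors TNFRSF6B was close to 0, averaging -0.06 ± 0.10 with RPS3 siRNA and -0.0037 ± 0.12 with p65 siRNA. TNFRSF11B (osteoprotegerin) read 0.35, 0.01 and -0.32 with RPS3 siRNA, and -0.06 and -0.28 at 1 and 6 h with p65 siRNA, so its siRNA groups overlapped. It has no probe with values on all 6 arrays.

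Receptors of B-cell survival factors and of lymphocyte costimulation varied mostly by array. TNFRSF13C, the BAFF receptor, read -0.76, -0.09 and 0.55 with RPS3 siRNA, and -0.18, -0.44 and 0.06 with p65 siRNA. TNFRSF17, the receptor BCMA, read 0.14, -0.0045 and -0.40 with RPS3 siRNA, and -0.02, 0.55 and -0.22 with p65 siRNA. TNFRSF25, the death receptor DR3, read -0.02, -0.01 and -0.16 with RPS3 siRNA, and -0.03, 0.46 and 0.10 with p65 siRNA. In all 3 the arrays of a siRNA spread wider than the siRNAs differed, apart from the narrow RPS3 siRNA values of TNFRSF25. Its 2 probes averaged -0.19 and 0.06 with RPS3 siRNA and -0.05 and 0.41 with p65 siRNA.

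TNFRSF14 (HVEM) and TNFRSF8 (CD30) show how single probes can set a mean. TNFRSF14 read 0.08, -0.05 and 2.29 with RPS3 siRNA, and -0.25, -0.05 and 0.19 with p65 siRNA. The 2.29 is the average of a probe at 0.14 and a probe at 4.44 that was blank on 4 arrays. The complete TNFRSF14 probe averaged 0.02 with RPS3 siRNA and -0.04 with p65 siRNA, against a gene mean of 0.77 ± 1.31 with RPS3 siRNA. TNFRSF8 read -0.09, -0.12 and 0.77 with RPS3 siRNA, and -0.15, 0.15 and 0.39 with p65 siRNA. At 6 h with RPS3 siRNA its probes ran from 0.21 to 1.54.

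Of the ligands TNFSF10 was the lowest under both siRNAs. It encodes TRAIL, which induces apoptosis through death receptors. TNFSF10 read -0.92, -0.47 and -0.24 at 1, 3 and 6 h with RPS3 siRNA, and -0.40, -0.58 and 0.07 with p65 siRNA. Of the 6 arrays 5 were below 0, the p65 siRNA array at 6 h was not, and the groups overlapped. The means were -0.54 ± 0.35 with RPS3 siRNA, or 1.46-fold lower than control (adjusted p = 0.546), and -0.30 ± 0.33 with p65 siRNA (adjusted p = 0.919). Averaged over both siRNAs it was at -0.42, the member with the lowest p in that comparison (adjusted p = 0.408). In that comparison 3 of 28 members had an unadjusted p under 0.05, or 10.7% against 10.2% of all features, and they were TNFSF10 and TRAF1 below 0 (4.69% of all features) and TNFSF13B above 0 (5.48%).

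The 2 TNFSF10 probes read alike with RPS3 siRNA and less so with p65 siRNA. With RPS3 siRNA one read -0.91, -0.53 and -0.30 and the other -0.93, -0.42 and -0.17. With p65 siRNA they read -0.19, -0.49 and -0.06, and -0.60, -0.66 and 0.19, with opposite signs at 6 h. Without the RPS3 siRNA array at 1 h the mean with that siRNA was -0.36. Leaving out 1 array gave -0.49 to -0.17 for the mean with p65 siRNA.

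TNFSF13B encodes BAFF, a B-cell survival factor. It was the 1 member above 0 on all 6 arrays (4.35% of all features with 6 values were). TNFSF13B read 0.40, 0.15 and 0.24 with RPS3 siRNA (mean 0.26 ± 0.13, adjusted p = 0.632), and 0.05, 0.18 and 0.14 with p65 siRNA (mean 0.12 ± 0.06, adjusted p = 0.922). The high RPS3 siRNA values came mainly from 1 probe (mean 0.41), and the other probe averaged 0.12. TNFSF8, the CD30 ligand, read 0.51, 0.11 and 0.35 with RPS3 siRNA, and -0.10, -0.14 and 0.37 with p65 siRNA. Its probes were far apart at 3 h with p65 siRNA, reading -1.13 and 0.86, so the -0.14 there is an average of opposite readings.

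TNFSF4, the OX40 ligand, read 0.21, 0.04 and 0.05 with RPS3 siRNA, and -0.003, 0.62 and 0.19 with p65 siRNA. Without the p65 siRNA array at 3 h its p65 siRNA mean was 0.09, against 0.27 with it. TNFSF9, the ligand of 4-1BB, read -0.09, -0.26 and -0.24 with RPS3 siRNA, and -0.14, 0.17 and -0.27 with p65 siRNA. Like its receptor TNFRSF9 it was below 0 on all 3 RPS3 siRNA arrays, but unlike it the siRNA groups overlapped. TNFSF11, which encodes RANKL, read 0.14, 0.16 and 0.15 with RPS3 siRNA, and 0.12, -0.14 and -0.03 with p65 siRNA. Those groups did not overlap, narrowly at 1 h, and its complete probes averaged from -0.05 to 0.36 with RPS3 siRNA. TNFSF13, which encodes APRIL, read 0.16, -0.04 and -0.17 with RPS3 siRNA (mean -0.02 ± 0.17). With p65 siRNA it read -0.03, 0.52 and -0.10 (mean 0.13 ± 0.34).

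TRAF1 was the lowest of the TRAF adaptors with RPS3 siRNA. It binds TRAF2 and receptors such as 4-1BB. TRAF1 read -0.41, -0.26 and -0.28 with RPS3 siRNA (mean -0.32 ± 0.08, adjusted p = 0.618), and -0.30, 0.05 and -0.27 with p65 siRNA (mean -0.17 ± 0.20, adjusted p = 0.919). Only the p65 siRNA array at 3 h was above 0. The 5 probes of TRAF1 disagreed: those with values on all arrays averaged from -0.49 to 0.05 with RPS3 siRNA. On the p65 siRNA array at 3 h they ran from -0.64 to 0.93.

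**Figure D3:**
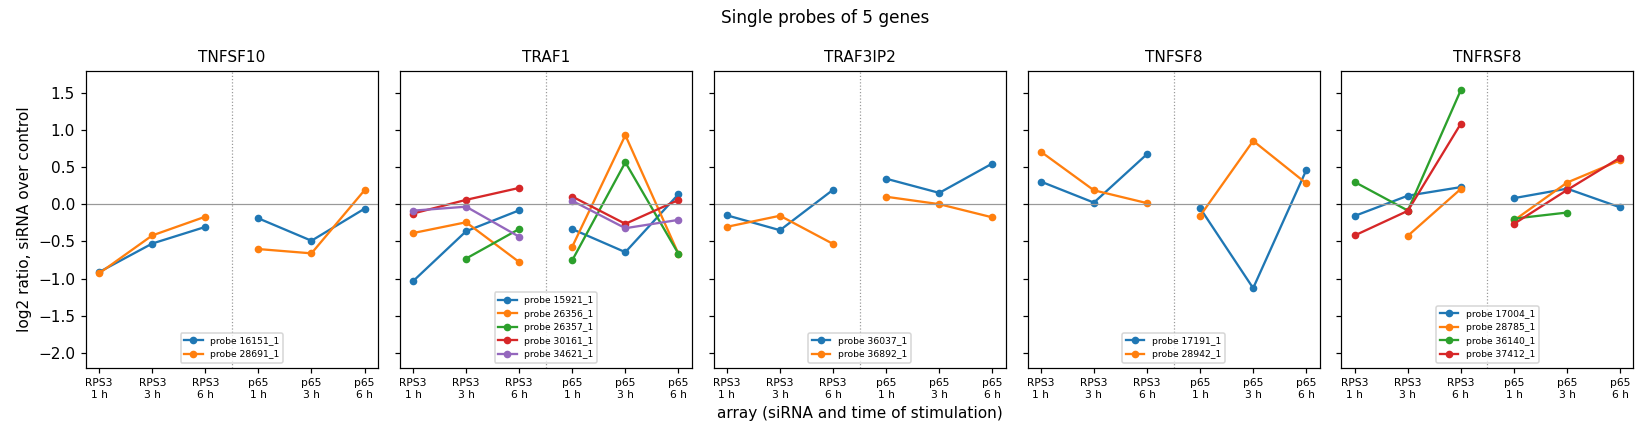
Log2 ratio (siRNA over control) of each probe of 5 genes on the RPS3 siRNA arrays (left of the dotted line) and the p65 siRNA arrays (right), at 1, 3 and 6 h; each line is 1 probe and a missing point is a blank. The 2 probes of TNFSF10 run together on the RPS3 siRNA arrays, and those of TRAF1, TNFSF8 and TNFRSF8 part on several arrays.

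TRAF3, which restrains the noncanonical NF-kB pathway, read -0.27, -0.17 and 0.06 with RPS3 siRNA, and -0.12, -0.58 and 0.01 with p65 siRNA. Its groups overlapped, and its promoter match is the one printed above. TRAF5 averaged 0.09 ± 0.29 with RPS3 siRNA and -0.06 ± 0.06 with p65 siRNA. TRAF6, a ubiquitin ligase that also serves Toll-like and interleukin-1 receptors, averaged 0.08 ± 0.15 with RPS3 siRNA and -0.06 ± 0.12 with p65 siRNA. With p65 siRNA 4 of 4 TRAF adaptors averaged below 0, at means of -0.23 to -0.06, and with RPS3 siRNA 2 of 4 did. Among all features 44.2% had a mean below 0 with p65 siRNA and 45.8% with RPS3 siRNA.

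TRAF3IP2 encodes Act1, an adaptor of interleukin-17 receptors. It read -0.23, -0.25 and -0.17 with RPS3 siRNA (mean -0.22 ± 0.04, adjusted p = 0.675), and 0.22, 0.08 and 0.19 with p65 siRNA (mean 0.16 ± 0.08, adjusted p = 0.919). It was the 1 member below 0 on all RPS3 siRNA arrays and above 0 on all p65 siRNA arrays, as were 1% of all features with 6 values. Single probes were less even: one read -0.15, -0.35 and 0.20 with RPS3 siRNA, and the other read 0.10, 0.002 and -0.18 with p65 siRNA. TRAF3IP3 read -0.19, 0.26 and 0.18 with RPS3 siRNA, and -0.06, -0.54 and 0.19 with p65 siRNA.

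BIRC2 encodes cIAP1, a ubiquitin ligase of receptor complexes. It read -0.16, 0.21 and -0.15 with RPS3 siRNA, and -0.01, -0.30 and -0.26 with p65 siRNA. RIPK2, the kinase of the NOD receptors, read 0.93, 0.06 and 0.21 with RPS3 siRNA, and -0.14, 0.13 and 0.43 with p65 siRNA. The 0.93 averages a probe at 1.57, blank on 2 arrays, with one at 0.30. RIPK3, the kinase of necroptosis, averaged 0.07 ± 0.12 with RPS3 siRNA and -0.02 ± 0.09 with p65 siRNA.

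The siRNAs were compared directly as RPS3 siRNA minus p65 siRNA, in which a dye effect common to all arrays cancels. Of 28 members 0 passed (0% of all features did), and the lowest adjusted p of a member was 1.00. An unadjusted p under 0.05 was found for 2 members, TNFRSF9 and TRAF3IP2, or 7.14%, against 2.35% of all features, both below 0 (1.25% of all features). TNFRSF9 differed by -0.73 at 1 h, -0.05 at 3 h and -0.58 at 6 h (mean -0.45, SE 0.18). Within ID series 1 the TNFRSF9 difference was -0.30 and within series 2 it was -0.53. TRAF3IP2 differed by -0.45, -0.33 and -0.36 (mean -0.38, SE 0.15), with -0.47 in series 1 and -0.33 in series 2. In each series the times of the siRNAs also differ. Differences at single times, and slopes, depend on the time labels, and the arrays labelled 1 and 3 h did not resemble each other by time.

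Arrays of the siRNAs did not overlap for 6 of the 27 members with 6 values. RPS3 siRNA was lower for TNFRSF9, TNFRSF1A, TNFRSF11A, TNFRSF10B and TRAF3IP2, which is 5 of 27 or 18.5%, against 4.82% of all features. It was higher for TNFSF11, 1 of 27, against 3.11% of all features. Of the 5, 4 were receptors, as were 12 of all 28 members. The differences of these 4 were -0.45 for TNFRSF9, -0.28 for TNFRSF1A and TNFRSF11A and -0.14 for TNFRSF10B. TNFRSF10B was apart only narrowly, and its complete probe alone overlapped, with a difference of -0.04. TNFRSF1A differed by -0.51, -0.16 and -0.15 at the 3 times, with -0.41 in series 1 and -0.21 in series 2. TNFRSF11A differed by -0.32, -0.29 and -0.21, with -0.20 and -0.31. The median over the 12 receptors was -0.05 with RPS3 siRNA and 0.09 with p65 siRNA. Over all 28 members 14 differences were below 0 and 14 above (50.6% and 49.4% of all features). The largest positive difference, 0.81 for TNFRSF14, rests on the probe at 4.44 and is 0.05 without the RPS3 siRNA array at 6 h.

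With 1 array per siRNA and time, a single time had no replicate, and the trend was tested as a common slope per hour in both siRNAs. Of 28 members 0 passed (0% of all features), and 4 had an unadjusted p under 0.05, or 14.3%, against 19.1% of all features. All 4 slopes were positive, where 12.1% of all features had such a positive slope and 7% a negative one. TNFRSF8 had a slope of 0.14 per hour (SE 0.04, adjusted p = 0.192), TNFRSF13C 0.16 (SE 0.06, adjusted p = 0.217), TNFSF10 0.12 (SE 0.04, adjusted p = 0.214) and TNFRSF14 0.28 (SE 0.10, adjusted p = 0.233). For TNFSF10 this is a ratio nearer to 0 at 6 h, since it read -0.24 and 0.07 there with RPS3 and p65 siRNA, against -0.92 and -0.40 at 1 h. TNFRSF13C and TNFRSF8 were below 0 at 1 h and above 0 at 6 h with each siRNA. The lowest slopes were those of TNFRSF11B (-0.09), TNFRSF17 (-0.08) and TNFSF13 (-0.05).

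**Figure D4:**
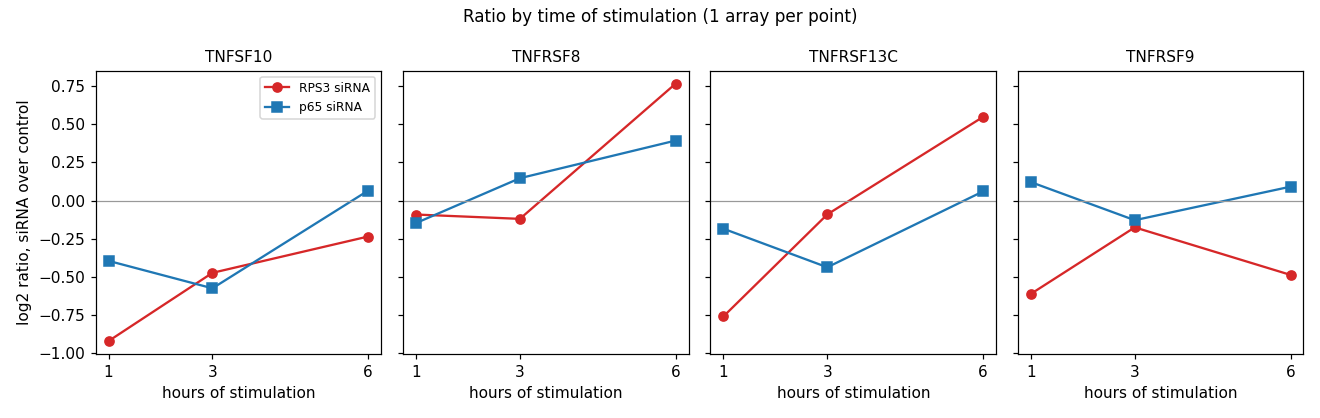
Log2 ratio (siRNA over control) against hours of stimulation for 4 genes, RPS3 siRNA in red and p65 siRNA in blue, 1 array per point. TNFSF10, TNFRSF8 and TNFRSF13C are highest at 6 h with each siRNA, and TNFRSF9 has no such order.

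These slopes were smaller without the 6 h arrays. Without both of them the slope was 0.07 for TNFSF10 and TNFRSF8, 0.10 for TNFRSF13C and 0.02 for TNFRSF14. There 0 members had an unadjusted p under 0.05, but so few features did, 67 against 1678 with all arrays, that this count says little about the members. Without the p65 siRNA array at 1 h TNFRSF13C passed, with a slope of 0.23 (adjusted p = 0.0446). Many features outside the members passed there too, and the count over all features is given in the last section. The pass therefore does not set TNFRSF13C apart. Of the 14 T-cell markers measured 10 had a positive slope, 8 of them with an unadjusted p under 0.05, and 4 had a negative one, 0 of them with such a p. Their median slope was 0.09 per hour against -0.0009 for all features. No T-cell marker passed. Their part in the result was not tested. Also measured were 6 markers of B cells, 6 of myeloid cells, 4 of epithelium and fibroblasts and 2 of erythroid cells. Of these, 0 had a positive slope with an unadjusted p under 0.05, where 12.1% of all features did. All 4 epithelial and fibroblast markers had a negative slope, 1 of them with such a p. In the other 3 of these lists 0 had such a negative slope (7% of all features did).

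Other genes of the pathway were taken from lists by symbol. Members of the TNF superfamily under other symbols gave 0 passing genes of 10 measured (15 listed) with either siRNA. FAS, the death receptor of FAS ligand, read -0.58, -0.24 and -0.69 with RPS3 siRNA, and 0.04, -0.48 and -0.65 with p65 siRNA. It was lower than control on 5 of 6 arrays, as TNFSF10 was, though on a different set of 5. TNF itself averaged -0.11 ± 0.01 with RPS3 siRNA and -0.09 ± 0.06 with p65 siRNA. NGFR, a neurotrophin receptor, averaged 0.47 ± 0.50 with RPS3 siRNA and 0.34 ± 0.32 with p65 siRNA. CD70, the ligand of CD27, read 0.62 and 2.93 at 1 and 6 h with RPS3 siRNA and -0.60 and -0.80 at 1 and 3 h with p65 siRNA, with the other arrays blank. The median of the list was 0.14 with RPS3 siRNA and -0.04 with p65 siRNA.

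Adaptors, kinases and ubiquitin enzymes of TNF receptor signalling gave 0 passing genes of 36 measured (55 listed). With RPS3 siRNA 2 had an unadjusted p under 0.05 below 0 and 1 above (3.98% and 3.73% of all features). With p65 siRNA 5 were below 0 and 0 above (2.41% of all features were below and 2.65% above). TNFAIP3, which encodes the inhibitor A20, averaged -0.64 ± 0.32 with RPS3 siRNA and -1.04 ± 0.40 with p65 siRNA, lower than any of the 28 members. The kinase gene MAP3K1 averaged -0.38 ± 0.12 with RPS3 siRNA and -0.45 ± 0.10 with p65 siRNA, below 0 on all 6 arrays. UBE2V1, a partner of the ubiquitin-conjugating enzyme used by TRAF6, averaged -0.31 ± 0.28 with RPS3 siRNA and -0.33 ± 0.17 with p65 siRNA. CYLD, a deubiquitinase that removes the chains TRAF proteins build, read 0.36, 0.31 and 0.58 with RPS3 siRNA, and 0.03, -0.53 and 0.07 with p65 siRNA. TNIP2, an A20-binding protein, read 0.06, 0.15 and 0.08 with RPS3 siRNA, and -0.49 and -0.28 at 1 and 3 h with p65 siRNA. TBK1, an IKK-related kinase, averaged -0.27 ± 0.29 with RPS3 siRNA and -0.48 ± 0.06 with p65 siRNA (2 arrays).

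The NF-kB subunits and IkB genes were measured for 9 of 9 symbols, and 0 passed. With p65 siRNA 9 of 9 averaged below 0 (44.2% of all features did), with a median of -0.29. With RPS3 siRNA 7 of 9 did (45.8% of all features), with a median of -0.12. The 9 include RELA, the target of the p65 siRNA. NFKBIA, which encodes IkB-alpha, averaged -0.60 ± 0.28 with RPS3 siRNA and -0.75 ± 0.27 with p65 siRNA. The medians of the TNF receptor, ligand and TRAF genes were closer to 0, at -0.015 and 0.01, and this difference between lists was not tested.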

How the data were processed

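Members and lists were chosen with earlier results of these data known. The authors deposited log2 ratios (the base is not stated; base 2 was taken, base 10 being implausible for values up to 9.52, and natural logs would enlarge each size). How spots were read, corrected, blanked and normalized is not given in the sources used here; per the labels, Cy5 carried the siRNA sample and Cy3 the control, with no dye swap named. Each array was centred on its median (deposited medians -0.0185 to 0.007), and probes of 1 symbol were averaged per array. GEO's platform annotation gave 1 symbol for 10169 of 15246 probes, several for 4 and none for 5073; 0 symbols changed on matching to current records. Features with values on at least 2 of 3 arrays per siRNA entered lmFit and eBayes of limma 3.58.1 (R 4.3.3) with Benjamini-Hochberg adjustment, with the 3 times of a siRNA as its replicates and both siRNAs sharing 1 estimate of spread. Blank values drop out of the fit. Testing a ratio against 0 ignores how much the control itself varies. No source states separate cultures; the p-values therefore reflect variation among arrays, possibly technical. Without channel intensities, brightness over background is unknown. The fit was tested on simulated data. Genes given in full were TNFRSF9, TNFRSF1A, those with an unadjusted p under 0.05, the 4 highest and 4 lowest means of each siRNA and of the difference, and the 3 highest and 3 lowest slopes.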

Additional observations from a re-analysis of the deposited data

Results flagged for a closer look

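TRAF3IP2, averaged over its 2 probes, was below 0 on all 3 RPS3 siRNA arrays and above 0 on all 3 p65 siRNA arrays. Neither probe alone had this pattern. At 6 h one read 0.20 with RPS3 siRNA and the other -0.18 with p65 siRNA. The mean difference was -0.38 (RPS3 siRNA minus p65 siRNA), and its unadjusted limma p was under 0.05 in 7 of 13 alternatives. The test of the difference did not pass (limma adjusted p = 1.00), and it ran from -0.43 to -0.35 over the 13 alternatives run at gene level.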

How the results depend on the processing

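No member passed under any alternative for the p65 siRNA, the RPS3 siRNA, their difference or their mean; for the slope TNFRSF13C passed without the p65 siRNA array at 1 h. Counts of all features passing moved from 0 as follows. The RPS3 siRNA comparison gave 1 after quantile normalization (an unnamed probe), 1 without both 6 h arrays and 1 when time was a block, the last 2 being RPS3; the difference gave 1 with the time point as a block, also RPS3; and the mean of both siRNAs gave 12 with each probe alone, including probes of RELA, TNFAIP3 and CD83. Leaving out 1 array gave 0 to 1 features for each siRNA and for their mean, 0 to 296 for the slope, and 0 to 1 members for the slope, the upper values without the p65 siRNA array at 1 h, except for RPS3 siRNA, where it was without the RPS3 siRNA array at 3 h. Signs turned for several values: TNFRSF9 with p65 siRNA gave -0.004 without both 6 h arrays and -0.019 to 0.11 with 1 array left out, TNFRSF1A with RPS3 siRNA -0.06 to 0.0405 and the RIPK2 difference -0.006 to 0.43. TNFRSF14 averaged over both siRNAs became -0.07 with complete probes only, against 0.37, TNFRSF8 with RPS3 siRNA -0.11 without that siRNA's array at 6 h, and the TNFRSF17 difference 0.03 without the p65 siRNA array at 3 h. Without both 6 h arrays the slopes of TNFRSF17 and TNFSF13 became 0.11 and 0.086. Members with an unadjusted p under 0.05 numbered 0 to 7 for RPS3 siRNA (0 without the array at 1 h), 0 to 3 for p65 siRNA and 0 to 2 for the difference; features ran from 439 to 1129, 236 to 767 and 167 to 433, against 678, 445 and 207. For the mean of both siRNAs members ran from 1 to 7 and features from 627 to 1454, against 3 and 895, and for the slope 0 to 6 and 67 to 2708, against 4 and 1678. With each probe alone the counts are of probes, so a gene can count more than once, and they do not compare directly with the others. That setting gave the 7 and 1129 for RPS3 siRNA and the 3 for p65 siRNA. It also gave the 7 and 1454 for the mean and the 2708 for the slope. The cause of these shifts in count was not tested. No paired analysis was possible by replicate number because the labels give none; pairing by time is the time block above.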
